A study of Acropora tenuis with 242 samples.

Results

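Juveniles of the reef-building coral Acropora tenuis raised under the SS symbiont treatment are described here against juveniles of the same crosses raised under C1, all kept at Ambient temperature. The members are all juvenile libraries whose labels give Ambient and either SS or C1, which makes 59 of the 242 libraries of the series, 30 of SS and 29 of C1. They come from 10 crosses among 5 populations (BK, CU, DR, LS and SB in the labels), with 3 SS and 3 C1 libraries in each cross except LSxLS, which had 2 of C1. BKxBK, CUxCU, DRxDR, LSxLS and SBxSB are crosses within a population, and CUxDR, CUxSB, DRxCU, DRxSB and LSxCU are crosses between populations. Expression was measured in juvenile tissue by tag-based RNA sequencing, which counts a short fragment of each transcript. The labels spell out neither code, give no age of the juveniles, and are silent on separate cultures and on pooling of animals. The p-values therefore cover the spread among these libraries alone, and that spread may be technical. Among the samples used here 0 C1 libraries are labelled Hot, so the comparison was made at Ambient alone.

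Reef corals house photosynthetic dinoflagellates of the family Symbiodiniaceae inside cells of their inner tissue layer, and exchange algal sugars and lipids for inorganic nutrients. Broadcast-spawning corals such as Acropora generally release eggs without algae, and each young polyp takes up its algae from its surroundings. Which algae are taken up, and how many, is known to matter for growth and for tolerance of heat. The parents contribute the coral genome, so a comparison within a cross holds the parental populations constant. The gene models carry identifiers that begin with Amillepora, and the files give no gene name beside them. Models are therefore given by identifier, and no function is stated.

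Total counts ran from 158481 to 586229 in SS libraries with a median of 361993.5, and from 303370 to 577215 in C1 libraries with a median of 408772. No 2 libraries of a group agreed within sampling noise, with a chi-square per degree of freedom of 2.2 to 7.33 over 58 pairs. All SS libraries of a cross had higher index numbers in their column names than the C1 libraries of that cross in 9 of 10 crosses, and lower ones in CUxCU. What the index number stands for is not given in the sources used here, and its part in the results was not tested apart from the fits with it as a covariate.

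The C1 libraries did not form a uniform group. In each cross the C1 library with the lowest sample number stood nearest to SS, a split noticed after the values were seen. Those 10 libraries differed from the other 19 C1 libraries in 1063 of the 8954 gene models tested (11.9%), with 495 higher and 568 lower (edgeR's quasi-likelihood test, adjusted p under 0.05). The same split by sample number gave 0 calls among SS libraries with edgeR (572 at an unadjusted p under 0.05), 0 among D1 libraries (773) and 63 among SED libraries (950), the other 2 symbiont treatments of the table. The lowest-numbered C1 libraries had a median total of 376536 counts, against 421951 in the other C1 libraries. The labels do not set these libraries apart. The average count, its named models, the range of slopes, the test between crosses and calls in single crosses are given with and without them. Other results below rest on all C1 libraries unless stated.

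On average over the 10 crosses, 799 of 8954 gene models differed between SS and C1 (8.92%, edgeR's quasi-likelihood test with Benjamini-Hochberg adjustment at 0.05). Of these, 418 were higher in SS (4.67% of models tested) and 381 were lower (4.26%). Most differences were small. The median size of the log2 fold change was 0.43 among called models, against 0.14 over all models tested, and the median signed value of all models tested was 0.0017. At least a 2-fold difference was found in 74 called models, 25 higher and 49 lower in SS. At least a 4-fold difference was found in 9, of which 7 were higher and 2 lower. The called models also lay at higher levels, with a median of 6.80 log2 CPM (CPM being counts put on an equal library size), against 5.77 over all models tested. Models with more counts are called more easily at the same fold change, so these levels are not read as a trait of the difference.

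The models called higher took 10.1% of all counts in SS libraries and 7.76% in C1 libraries. The models called lower took 5.80% in SS and 7.76% in C1. These calls chose the models, so the shares describe how much of the library they cover. The direction was alike in most crosses, with 758 of the called models (94.9%) moving the same way in at least 8 of 10 crosses, against 2413 of all models tested. All 10 crosses had the same direction in 258 called models (32.3%), against 306 of the models tested (3.42%). Calls and directions come from the same libraries, so these counts are a description.

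**Figure D1:**
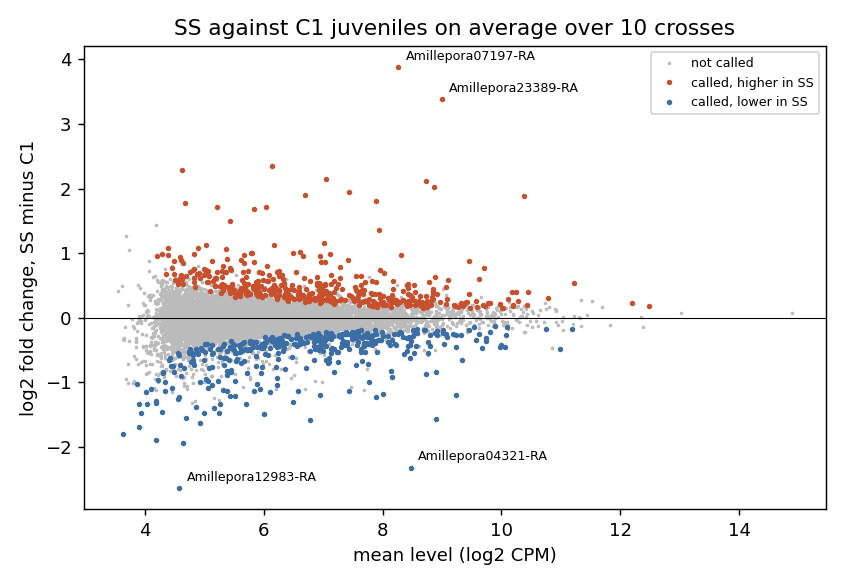
Log2 fold change of SS minus C1 (vertical axis) against the mean level in log2 CPM (horizontal axis) for the 8954 gene models tested, with called models in colour and the 4 named models labelled. Mean levels are taken over all libraries of the fit, D1 and SED included. Called models higher in SS (418) and lower in SS (381) are similar in number, and Amillepora07197-RA and Amillepora23389-RA stand above all others.

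The number of called models depended on which C1 libraries were used. Against the 10 lowest-numbered C1 libraries alone SS differed in 200 models (106 higher and 94 lower, 2.23% of those tested), and against the other 19 C1 libraries in 1496 (739 higher and 757 lower, 16.7%). Of the 799 models called against all C1 libraries, 715 (89.5%) had the same direction against the lowest-numbered libraries and 98 were also called there. All 799 had the same direction against the other C1 libraries. These contrasts share their SS libraries and parts of C1. For the same difference a group of 10 libraries gives fewer calls than one of 19, so these counts are not measures of size. Libraries carry no replicate number in the labels and were numbered within a group by accession order. When every group lost its number 1 there were 1316 calls of 9067 models tested. Without number 2 there were 256 of 8987, and without number 3 there were 341 of 8662. Thinning every library to 158481 counts left 253 calls, with only 6428 models tested. Leaving out CUxSB left 517 of 8747. With the index number as a covariate there were 826 calls, or 503 when 2 D1 libraries with index numbers far above the rest were left out.

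Amillepora07197-RA had the largest rise. It had 198, 341 and 1070 CPM in SS libraries as the lowest, the median and the highest value, against 2.90, 24.6 and 52.3 CPM in C1 libraries. No SS library of any cross overlapped any C1 library. The fitted log2 fold change was 3.88 with a standard error of 0.35, a 14.8-fold difference (edgeR adjusted p = 3.77e-16). Across crosses it ran between 2.74 in CUxSB and 5.20 in BKxBK. In CUxSB the SS libraries had 381, 341 and 280.7 CPM and the C1 libraries had 52.3, 46.0 and 50.8 CPM. In BKxBK they had 1070, 271 and 388 CPM in SS and 17.0, 16.4 and 12.8 CPM in C1. BKxBK thus held the highest SS library of all, at 1070 CPM, beside low C1 values. Its levels did not split the C1 libraries beyond their spread, with 24.2 ± 13.6 CPM in the lowest-numbered (SD, n = 10) and 27.6 ± 11.8 CPM in the others (SD, n = 19). The log2 fold change was 3.99 against the lowest-numbered C1 libraries and 3.83 against the others.

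Amillepora23389-RA was the second largest rise and did follow that split. It had 352, 559 and 910 CPM in SS libraries (lowest, median, highest), against 0, 26.2 and 261 CPM in C1. Here too the SS and C1 libraries did not overlap, in any cross or between crosses. The log2 fold change was 3.39 with a standard error of 0.30, a 10.5-fold difference (edgeR adjusted p = 5.39e-17). Within C1 it averaged 131 ± 69.2 CPM in the lowest-numbered libraries (SD, n = 10) and 19.0 ± 23.3 CPM in the others (SD, n = 19). In every cross the lowest-numbered C1 library was the highest of its C1 libraries. In LSxLS, for example, SS libraries had 478, 427 and 831 CPM, against 261 CPM in the lowest-numbered C1 library and 2.64 CPM in the other. The log2 fold change was 2.14 against the lowest-numbered C1 libraries (edgeR adjusted p = 1.88e-05) and 4.95 against the others (edgeR adjusted p = 5.85e-24). Over crosses the log2 fold change ran from 2.10 in LSxLS to 5.38 in LSxCU, where the lowest-numbered C1 library had 26.2 CPM.

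Amillepora12983-RA, the largest fall, was a model of low level. It had 0, 5.59 and 16.6 CPM in SS libraries (lowest, median, highest), against 5.23, 29.0 and 139 CPM in C1. SS and C1 libraries of the same cross did not overlap in 7 of 10 crosses, with overlap in CUxSB, DRxCU and DRxSB. It fell by 2.64 on the log2 scale with a standard error of 0.27, a 6.25-fold difference (edgeR adjusted p = 1.93e-13). The lowest-numbered C1 libraries averaged 13.6 ± 7.57 CPM (SD, n = 10) and the other C1 libraries 57.4 ± 34.1 CPM (SD, n = 19). Against the lowest-numbered libraries alone its log2 fold change was -1.02 and did not pass the test (edgeR adjusted p = 0.111), while against the others it was -3.08 (edgeR adjusted p = 2.68e-19).

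Amillepora04321-RA, the other named model lower in SS, was expressed at higher levels. It had 11.4, 108 and 386 CPM in SS libraries (lowest, median, highest), against 248, 567 and 1140 CPM in C1. Within crosses the groups did not overlap in 9 of 10. The exception was CUxSB, with 11.4, 53.7 and 386 CPM in SS and 447, 256 and 502 CPM in C1. The model fell by 2.33 on the log2 scale with a standard error of 0.24, a 5.02-fold difference (edgeR adjusted p = 4.04e-13). The log2 fold change was -1.80 against the lowest-numbered C1 libraries (edgeR adjusted p = 4.08e-05) and -2.54 against the others (edgeR adjusted p = 6.39e-14). Over crosses it ran from -3.59 in DRxCU to -1.39 in CUxSB.

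All 4 models were named for the size of this difference, so their values are a description of it. Amillepora07197-RA had a median of 42.9 CPM in D1 libraries and 585 CPM in SED libraries at Ambient, with ranges of 0 to 675 and 40.8 to 1720 CPM. Amillepora23389-RA had medians of 304 CPM in D1 and 937 CPM in SED. The SS medians of both models, 341 and 559 CPM, lay between those of D1 and SED. Amillepora12983-RA had medians of 10.3 CPM in D1 and 4.17 CPM in SED, and Amillepora04321-RA had 381 and 167 CPM. For Amillepora12983-RA the SS median of 5.59 CPM again lay between D1 and SED, whereas that of Amillepora04321-RA, 108 CPM, lay below both.

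**Figure D2:**
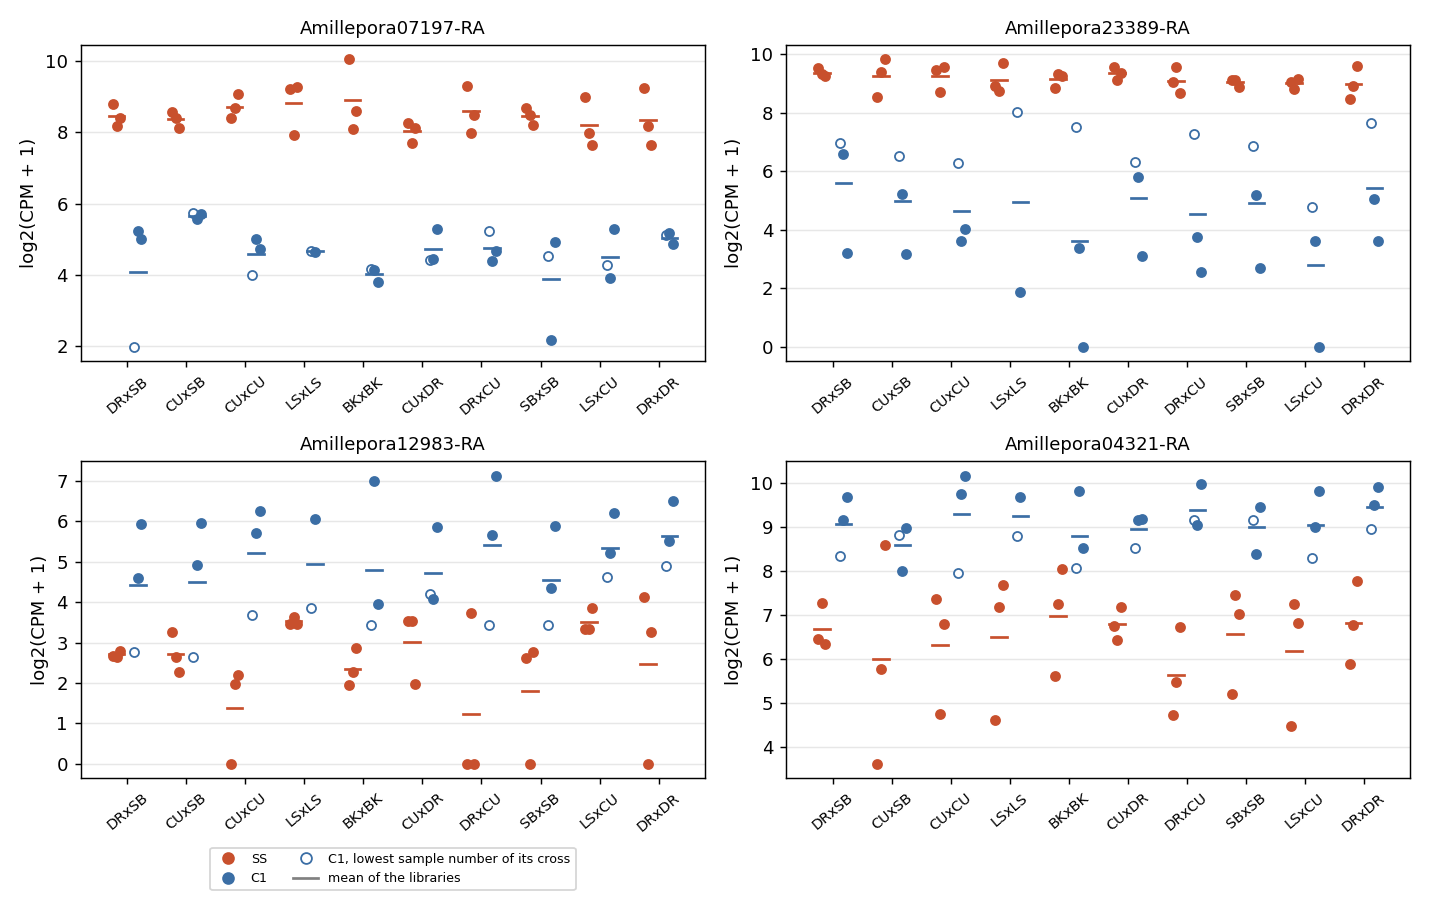
Level of the 4 named models in each library, as log2(CPM + 1) (vertical axis), by cross (horizontal axis), with SS left of C1 in each cross, bars at the mean of the libraries' log2 values and open circles for the lowest-numbered C1 library. The upper models show no overlap between SS and C1 in any of the 10 crosses, and for Amillepora23389-RA the open circle is the highest C1 value in each cross.

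The size of the difference was then set out cross by cross. For each cross, gene models were taken from the average comparison made without that cross, which gave 517 to 809 models. A library's score is the mean log2 CPM of the models called higher in SS minus that of the models called lower. SS libraries scored higher than C1 libraries on average in 10 of 10 crosses, with a mean difference of 0.78 ± 0.18 (SD, n = 10 crosses). The groups did not overlap in 9 crosses, and 29 of the 30 SS libraries lay above every C1 library of their cross. The exception was SS library 3 of LSxCU, which scored 0.04, below the lowest-numbered C1 library of that cross at 0.14.

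CUxSB had the largest score difference, 1.10, with SS at 0.44 ± 0.20 and C1 at -0.66 ± 0.54 (SD, n = 3 each). Its SS libraries scored 0.50, 0.61 and 0.22, and its C1 libraries -0.04, -0.90 and -1.03. DRxSB followed with 0.98, from SS at 0.58 ± 0.13 and C1 at -0.40 ± 0.36 (SD, n = 3 each). The 2 C1 libraries of CUxSB other than the lowest-numbered had the lowest scores of all 59 libraries. DRxDR had the smallest score difference, 0.49, from SS at 0.57 ± 0.12 and C1 at 0.08 ± 0.10 (SD, n = 3 each). DRxDR SS libraries scored like those of other crosses (0.44, 0.67 and 0.60), and its C1 libraries, at 0.18, -0.01 and 0.07, had the highest C1 mean of the 10 crosses. The scores of different crosses rest on partly different lists of models, so levels and score differences are compared between crosses only roughly. The shortest lists were those of CUxSB (517 models) and DRxSB (608), and the longest those of LSxCU (809) and DRxDR (790). What part the length of the list has in the order of the crosses was not tested. The order of the crosses depended on the processing. With libraries thinned to equal totals CUxCU had the largest score difference, 1.41, against 1.25 in CUxSB, and without C1 library 3 that of CUxSB was 0.91. DRxDR kept the smallest value when thinned, 0.64, while leaving out single libraries brought CUxDR and LSxCU down to 0.45. In every cross the lowest-numbered C1 library had the highest C1 score (10 of 10).

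**Figure D3:**
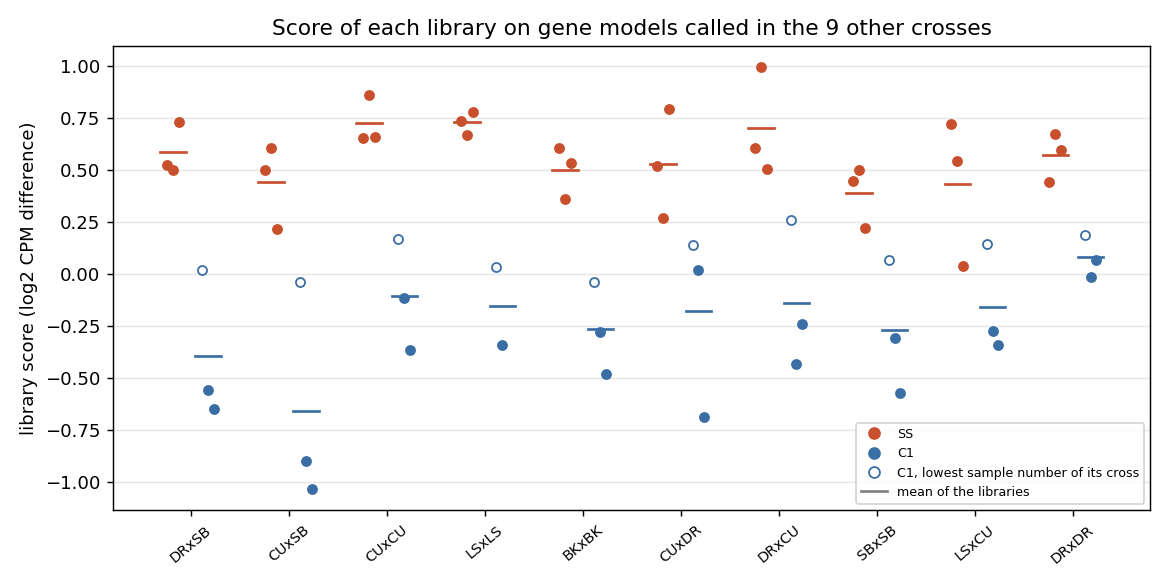
Score of each library (vertical axis, a difference in log2 CPM) by cross (horizontal axis), with SS left of C1, bars at the mean and open circles for the lowest-numbered C1 library. SS lies above C1 without overlap in 9 of 10 crosses, LSxCU overlaps, and the open circle is the highest C1 value in each cross.

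A second measure of size was the slope, through 0, of a cross's log2 fold changes on those of the other crosses over the same models. The models were picked because they were called in the other crosses, which favours large differences there, so slopes under 1 do not by themselves show a smaller difference, and the slopes are read only against each other. The slopes had a median of 0.75 and ran from 0.37 in DRxDR to 1.07 in DRxSB. CUxSB had 1.01, CUxCU 0.97, LSxLS 0.79, BKxBK 0.76, CUxDR 0.74, DRxCU 0.70, SBxSB 0.68 and LSxCU 0.68. From DRxSB to LSxCU, the ranges that leaving out single libraries gives overlap between neighbours in this order. In DRxDR that range ran from 0.28 to 0.55, and its highest value, without SS library 1, is as high as the lowest values of several other crosses. Single libraries moved other slopes further. The slope of LSxLS was 1.16 without its lowest-numbered C1 library and 0.59 without its other one, that of LSxCU was 0.98 without its SS library 3, and that of DRxCU was 1.01 without its SS library 3. Without the lowest-numbered C1 library of each cross the slopes ran from 0.43 in DRxDR to 1.23 in DRxSB.

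Each cross was also set against the direction found in the others. Of the models called in the other crosses, between 70.7% in LSxCU and 88.5% in DRxSB moved the same way in the cross left out. The same share over all models tested was 54.9% in LSxCU and 62.5% in DRxSB. DRxDR had 74.7% against 55.5% over all models tested, and CUxSB 88.2% against 62.8%. In the remaining 6 crosses the share among the models called elsewhere was 80.9% to 86.3%, against 59.6% to 61.8% over all models tested.

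Models higher and lower in SS did not contribute alike in every cross. In DRxDR the slope was 0.64 over models higher in the other crosses and 0.13 over models lower there, with 82.4% and 66.8% of them in the same direction. DRxCU had slopes of 1.07 and 0.36 for these lists, with 90.4% and 82.0% in the same direction. LSxCU had 0.84 and 0.52. In BKxBK and LSxLS the order was the other way round, with 0.73 over the higher and 0.80 over the lower models in BKxBK, and 0.72 and 0.89 in LSxLS. These are descriptions without a test.

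**Figure D4:**
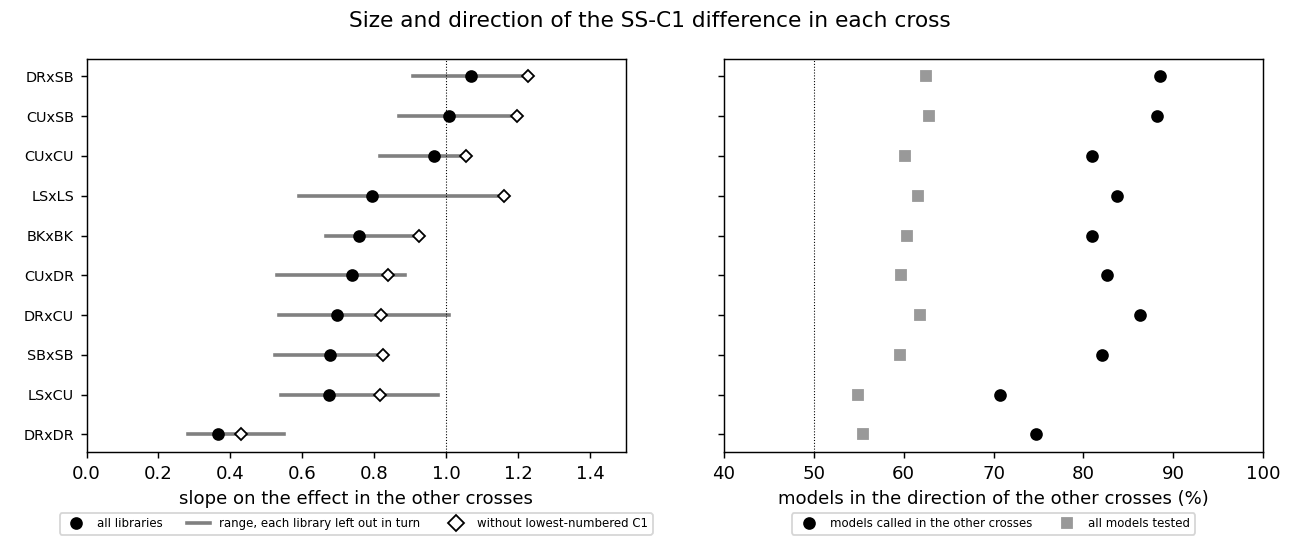
Left, slope of each cross's log2 fold changes on those of the other crosses, with the range when single libraries are left out and the value without the lowest-numbered C1 library. Right, percent of models moving in the direction of the other crosses, among models called there and among all models tested. DRxDR has the lowest slope, 0.37, and LSxCU the lowest share in the same direction, 70.7%.

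Pairs of crosses differed in how alike their log2 fold changes were. Over the 1889 models with a mean of at least 7 log2 CPM, Pearson's r between the differences of 2 crosses ran from 0.06 to 0.61 over the 45 pairs, with a median of 0.41. Over all 8954 models it ran from -0.14 to 0.47 with a median of 0.17. These are correlations across gene models, which are not independent replicates, and each cross has its own libraries. The log2 fold change of an abundant model typically spread over 0.78 between its lowest and highest cross (median of 1889), and over 0.79 among the 351 abundant models called on average.

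No gene model passed the test that its SS-C1 difference varies among the 10 crosses. The F-test of edgeR's quasi-likelihood fit called 0 of 8954 models (0%), with 3.25% of models at an unadjusted p under 0.05 and a smallest adjusted p of 0.311. Of the 799 models called on average, 25 (3.13%) had an unadjusted p under 0.05 for this difference. DESeq2's likelihood ratio test called 1 of 9045, with 306 at an unadjusted p under 0.05. Without the lowest-numbered C1 library of each cross edgeR also called 0, of 8965 tested. The 0 depends on the low-count filter. Without it edgeR called 407 models, 381 of which also pass the filter, in a fit whose prior degrees of freedom were infinite rather than 8.79, so that a model's own spread between libraries carried no weight.

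The model called by DESeq2 was Amillepora08800-RA (DESeq2 adjusted p = 0.0232, edgeR unadjusted p = 3.48e-05). In DRxDR it had 251, 24.3 and 3.42 CPM in SS, against 2.37, 2.53 and 2.80 CPM in C1. In CUxDR it had 0, 0 and 2.92 CPM in SS, against 11.7, 217 and 176 CPM in C1. In SBxSB it had 80.5, 2.66 and 460 CPM in SS, against 42.5, 158.9 and 12.8 CPM in C1. In BKxBK it had 0, 1.93 and 4.20 CPM in SS, against 29.1, 23.2 and 60.7 CPM in C1, and every C1 library also lay above every SS library in CUxDR, DRxSB and LSxLS. In DRxCU it had 0, 2.44 and 212.9 CPM in SS, against 0, 0 and 4.865 CPM in C1. Libraries of the same cross and treatment thus differed widely in several crosses, among them DRxDR SS, DRxCU SS, CUxDR C1 and both treatments of SBxSB. C1 lay above SS without overlap in 4 crosses.

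Crosses within and between populations were not told apart by the test. The mean SS-C1 difference of the 5 between-population crosses minus that of the 5 within-population crosses was called in 0 of 8954 models with edgeR (0%), with 440 (4.91%) at an unadjusted p under 0.05. The slopes averaged 0.84 ± 0.19 in between-population and 0.71 ± 0.22 in within-population crosses (SD, n = 5 each), a difference smaller than the spread within either kind. CUxDR and DRxCU combine the same populations in opposite order. Their SS-C1 differences were called as different in 0 of 8954 models with edgeR (0%), with 390 (4.36%) at an unadjusted p under 0.05. Their slopes were 0.74 and 0.70 and their score differences 0.70 and 0.84. Without the low-count filter, in the fit with infinite prior degrees of freedom, the first of these tests called 60 models. The second called more than 100 there, of which 113 also pass the filter.

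Within single crosses, where 3 SS libraries face 3 of C1 (2 of C1 in LSxLS), few models passed the test. CUxSB had 8 called models (0.0893% of 8954), 3 higher and 5 lower in SS. BKxBK had 4 (0.0447%), DRxSB had 2 (0.0223%) and CUxCU had 1 (0.0112%). CUxDR, DRxCU, DRxDR, LSxCU, LSxLS and SBxSB had 0 each (0%) with edgeR. Unadjusted p-values under 0.05 were most frequent in CUxSB (1084 models, 12.1%) and DRxSB (649, 7.25%). They were least frequent in DRxDR (405, 4.52%), SBxSB (427, 4.77%) and LSxLS (421, 4.70%). BKxBK had 625 (6.98%), CUxDR 560 (6.25%), DRxCU 544 (6.08%), LSxCU 541 (6.04%) and CUxCU 474 (5.29%). None of the models named from the average comparison was called in a single cross. The lowest adjusted p among them there was 0.0777, for Amillepora07197-RA in BKxBK, in a fit whose spread is shared with D1 and SED.

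Amillepora03291-RA in BKxBK was the largest of these differences. It and the other models of single crosses named here were chosen after their values were seen. BKxBK SS libraries had 39.7, 34.4 and 33.4 CPM, against 802, 624 and 234 CPM in BKxBK C1 libraries. The model fell by 3.94 on the log2 scale in BKxBK with a standard error of 0.76 (edgeR adjusted p = 0.0137). In the other 9 crosses its log2 fold change lay between -0.58 and 0.53, with 2 of them in the same direction as BKxBK. Elsewhere both treatments had at least 393 CPM, except for 1 SS library (17.3 CPM) and 1 C1 library (27.1 CPM) of SBxSB. Low values were therefore found under both treatments, and the difference of this model between crosses was not called (edgeR unadjusted p = 0.00204, adjusted p = 1).

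The other 3 models of BKxBK were smaller differences. Amillepora08792-RA had 190, 332 and 296.2 CPM in SS, against 659, 725 and 757 CPM in C1, a log2 fold change of -1.38 in BKxBK (edgeR adjusted p = 0.0435). It was lower in SS in the 9 other crosses too, by log2 fold changes of -1.26 to -0.50, and on average by -0.87 (edgeR adjusted p = 2.31e-12). Amillepora15226-RA had 93.6, 68.7 and 68.8 CPM in SS, against 19.5, 21.1 and 32.8 CPM in C1 of BKxBK. Its log2 fold change there was 1.61 (edgeR adjusted p = 0.0386), with 0.03 to 0.59 in the other crosses. Amillepora04725-RA had 125, 101 and 102 CPM in SS, against 43.8, 39.9 and 40.1 CPM in C1 of BKxBK. Its log2 fold change was 1.40 in BKxBK (edgeR adjusted p = 0.0435) and -0.33 to 0.56 in the other crosses, and it was not called on average (edgeR adjusted p = 0.228).

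**Figure D5:**
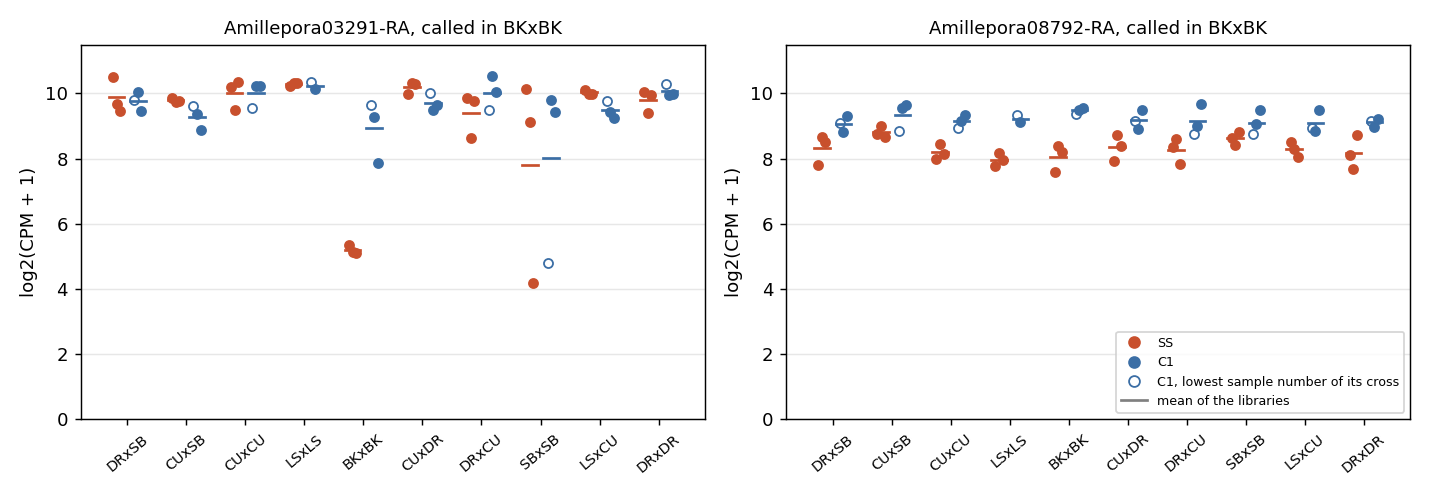
Level of Amillepora03291-RA (left) and Amillepora08792-RA (right) in each library, as log2(CPM + 1), by cross, with SS left of C1, bars at the mean of the log2 values and open circles for the lowest-numbered C1 library. The SS libraries of BKxBK lie at 33.4 to 39.7 CPM for Amillepora03291-RA, while Amillepora08792-RA has a lower SS mean in each cross.

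In CUxSB some calls went with C1 libraries that stood apart from those of the other crosses. Amillepora12802-RA had 957, 915 and 885 CPM in SS, against 759, 472 and 417 CPM in C1 of CUxSB. The C1 libraries other than the lowest-numbered, at 472 and 417 CPM, were the lowest C1 values of any cross. The log2 fold change in CUxSB was 0.74 (edgeR adjusted p = 0.0219), against -0.14 to 0.20 in the other crosses. Amillepora25314-RA had 153.4, 142 and 181 CPM in SS, against 267, 302 and 407 CPM in C1 of CUxSB, the highest C1 values of any cross. Its log2 fold change was -1.04 in CUxSB (edgeR adjusted p = 0.0382) and -0.18 to 0.38 elsewhere. Neither model was called on average (edgeR adjusted p of 0.284 and 0.922). All other models called in CUxSB were also called on average, in the same direction. Their edgeR adjusted p on average ran from 4.51e-08 (Amillepora04505-RA) to 0.0468 (Amillepora07903-RA). In every model called in CUxSB the lowest-numbered C1 library was the C1 library nearest to SS. Amillepora29594-RA is an example. It had 179, 163 and 183 CPM in SS, against 191 CPM in the lowest-numbered C1 library and 561 and 618 CPM in the others. The count of calls in CUxSB depended on single libraries. Without its lowest-numbered C1 library 410 models were called, and without its C1 library 2 there were 0. The count lay between 0 and 410 when each library was left out in turn.

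DRxSB and CUxCU gave the remaining calls, all of them higher in SS. Amillepora06385-RA had 313, 137 and 290 CPM in SS, against 69.7, 52.1 and 72.7 CPM in C1 of DRxSB, a log2 fold change of 1.91 (edgeR adjusted p = 0.0435). It was higher in SS in the 9 other crosses, by 0.34 to 1.43, and on average by 0.95 (edgeR adjusted p = 4.51e-08). Amillepora22153-RA had 265, 211 and 311 CPM in SS, against 43.6, 79.0 and 102 CPM in C1 of DRxSB, a log2 fold change of 1.77 (edgeR adjusted p = 0.0238). In the other crosses it ran from -0.18 to 0.58. Amillepora19695-RA had 203, 127.8 and 199 CPM in SS, against 77.5, 85.4 and 78.3 CPM in C1 of CUxCU. Its log2 fold change was 1.11 in CUxCU (edgeR adjusted p = 0.0487) and -0.10 to 0.34 elsewhere. None of the 15 models called in single crosses was called as differing between crosses, where each had an edgeR adjusted p of 1. Leaving out any single library of the cross left 0 to 1 calls in BKxBK, 0 to 1 in CUxCU and 0 to 4 in DRxSB.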

How the data were processed

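RNA came from juvenile tissue (RNAqueous kit) and was read by tag-based sequencing, as the labels' protocols state. The authors deposited raw counts, 1 value per gene model and library, per the file headers. The submitters' processing notes name Bowtie2 2.2.9. Not given in the sources used here are the reference, the counting step and the treatment of duplicate reads. Columns were assigned to samples by title, and groups came from the labels. The crosses, models and lists were chosen with earlier results of these data known.

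Counts of 119 Ambient juvenile libraries (SS 30, C1 29, D1 32, SED 28), which share one estimate of the spread, were fitted with edgeR 4.0.16 in R 4.3.3 (TMM, filterByExpr, glmQLFit, glmQLFTest), and models were called at a Benjamini-Hochberg adjusted p under 0.05. Of 25349 models 8954 were tested. The average used terms for cross and symbiont, and the tests by cross used 1 mean per cross and symbiont. CPM and log2 CPM of single libraries use whole library totals scaled by TMM, and log2 CPM a prior count of 2. Mean levels of models in log2 CPM, with their medians and cut-offs, are edgeR's averages instead. They are taken over all libraries of the fit, D1 and SED included, on the totals of the tested models. Average models were named by rule: the 2 with the largest fold change in each direction among called models that averaged 3 log2 CPM or more and moved alike in 8 or more of 10 crosses. Whether reads of near-identical copies were split is not given, so a model's value can hold reads of its copies. Gene lists and cell type markers could not be used without gene names. Fits were tested on simulated data without level differences between crosses and without a split of C1. The changes put in were larger than most found here. The simulation thus does not show whether smaller differences between crosses would be called. DESeq2 1.42.0 and other settings were tried as alternatives.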

Additional observations from a re-analysis of the deposited data

How the results depend on the processing

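No setting reversed the sign of a fold change, slope or score difference compared here. Counts of called models have no sign to reverse, and many of them moved, as given below. The 4 models named on average kept their call and direction in every setting that could test them, apart from Amillepora12983-RA against the lowest-numbered C1 libraries. The average count was 799. It was 253 of 6428 models tested with libraries thinned to 158481 counts, and 517 of 8747 without CUxSB. It was 256 to 1316 when each replicate number was left out, with 1316 when every group lost its number 1. Settings chosen after the data were seen gave 1469 in a refit without the lowest-numbered C1 libraries and 179 in a refit with only those. The 1496 and 200 calls given earlier are contrasts over the 8954 models with all C1 libraries kept. With the index covariate without the 2 late D1 libraries there were 503 calls. The average count was 884 with DESeq2 and 517 to 809 without each cross. Thinning leaves fewer counts by construction; the cause of the other changes was not tested.

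The difference between crosses, 0 called, became 1 with DESeq2, 1 without SBxSB, 407 without the low-count filter, and 0 to 1 leaving out replicates. The reciprocal comparison gave about 1.2e+02 and the within-between comparison 60 without the filter, and leaving out single libraries gave 0 to 1 for the reciprocal comparison.

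Calls in single crosses rest on few libraries. The fit without the filter tested 25095 models with infinite prior degrees of freedom, so a model's own spread between libraries carried no weight. Calls in single crosses were then 146 in BKxBK, 70 in CUxCU, 205 in CUxDR, 125 in CUxSB, 71 in DRxCU, 88 in DRxDR, 172 in DRxSB, 120 in LSxCU, 74 in LSxLS and 83 in SBxSB. With SS and C1 libraries alone they were 5 in CUxCU, 2 in CUxDR, 4 in CUxSB, 4 in DRxCU, 1 in DRxDR, 2 in LSxCU, 1 in LSxLS and 3 in SBxSB. Without the lowest-numbered C1 libraries they were 7 in BKxBK, 0 in CUxCU, 461 in CUxSB, 3 in DRxCU, 0 in DRxSB, 2 in LSxCU and 3 in SBxSB. Thinned they were 2 in BKxBK, 0 in CUxCU, 2 in CUxSB and 1 in SBxSB. The index covariate gave 2 in BKxBK and 0 in CUxCU, and without the 2 late D1 libraries 12 in BKxBK, 2 in CUxCU, 2 in CUxDR, 18 in CUxSB, 6 in DRxCU, 1 in DRxDR, 10 in DRxSB, 6 in LSxCU, 1 in LSxLS and 1 in SBxSB. DESeq2 size factors gave 0 in CUxCU. Leaving out single libraries gave 0 to 1 in BKxBK, CUxCU, LSxCU and SBxSB, 0 to 410 in CUxSB, 0 to 4 in DRxSB, 0 to 2 in LSxLS and 0 in CUxDR, DRxCU and DRxDR.

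Scores thinned were 1.41 in CUxCU, 1.25 in CUxSB, 1.18 in DRxCU, 0.64 in DRxDR, 0.99 in LSxCU and 1.23 in LSxLS; slopes thinned were 0.98 in DRxCU and 0.50 in DRxDR. The slope of DRxDR was 0.45 over models of at least 5 log2 CPM, and that of LSxLS 1.16 without its lowest-numbered C1 library. Leaving out single libraries, slopes ran from 0.67 to 0.93 in BKxBK, 0.81 to 1.06 in CUxCU, 0.53 to 0.89 in CUxDR, 0.87 to 1.20 in CUxSB, 0.54 to 1.01 in DRxCU, 0.28 to 0.55 in DRxDR, 0.91 to 1.23 in DRxSB, 0.54 to 0.98 in LSxCU, 0.59 to 1.16 in LSxLS and 0.52 to 0.82 in SBxSB. Scores ran from 0.66 to 0.88 in BKxBK, 0.70 to 0.97 in CUxCU, 0.45 to 0.86 in CUxDR, 0.91 to 1.41 in CUxSB, 0.69 to 1.04 in DRxCU, 0.44 to 0.56 in DRxDR, 0.85 to 1.19 in DRxSB, 0.45 to 0.79 in LSxCU, 0.70 to 1.07 in LSxLS and 0.51 to 0.83 in SBxSB.

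No paired analysis was possible because the juvenile labels give no replicate number (the numbers used to leave libraries out were given in accession order); cross is a term in each fit.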
